A study of Mus musculus with 6 samples.

Results

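The mitochondrial protein import machinery comprised 33 of the 27482 gene symbols in the deposited count table. They were taken by name: every symbol starting with Timm or Tomm and a number, together with Samm50, Mtx1, Mtx2, Pam16, Dnlz, Grpel1, Grpel2, Pmpca and Pmpcb, provided that at least 10 counts were present over the 6 libraries. Of 35 rows with such a name, Timm8a2 (5 counts) and Tomm20l (0 counts) fell under that minimum. The 33 members hold 32 protein-coding genes and Tomm6os, an antisense transcript of Tomm6 whose symbol fits the name pattern. All 33 also passed the filter on low counts before testing.

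The libraries came from material labelled as heart of male mice that had received an adeno-associated virus of serotype 9 (AAV9). In 3 libraries the vector was AAV9-hFNDC4, with the genotype given as FNDC4 overexpression, and in 3 it was AAV9-CTRL, with the genotype given as control. FNDC4 is a secreted protein with a fibronectin type III domain. All 6 are labelled I/R, meaning ischemia followed by reperfusion, and were taken 24 h after it, so no library stands for an uninjured heart. The sources used here name no strain, age or promoter for the transgene, and the labels do not tell whether a library is 1 animal, so the spread between libraries may be partly technical.

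Nearly all mitochondrial proteins are encoded in the nucleus, made in the cytosol and carried through the mitochondrial membranes. The TOM complex is the entry gate of the outer membrane, with receptors (Tomm20, Tomm22, Tomm70a), a channel (Tomm40) and small subunits (Tomm5, Tomm6, Tomm7). From there the SAM complex (Samm50, Mtx1, Mtx2) inserts barrel proteins into the outer membrane, small TIM chaperones ferry hydrophobic proteins across the intermembrane space, the TIM22 complex inserts carriers into the inner membrane, and the TIM23 complex with its PAM motor draws presequence proteins into the matrix, where the peptidase MPP (Pmpca, Pmpcb) removes the presequence. Heart muscle is rich in mitochondria and depends on this supply.

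Total counts per library lay between 32975817 and 36074046, and 18717 to 18863 genes were detected in the AAV9-hFNDC4 libraries against 20431 to 20870 in the AAV9-CTRL libraries. The libraries went against their tissue label: of 16 cardiomyocyte markers 4 reached 1 CPM (counts scaled to a common library total) in at least 3 libraries, Myl7, Pln and Nkx2-5 were at 0 in all 6, and Myh6 averaged 0.276 CPM. Of 9 measured fibroblast markers 5 reached that level, and the summed CPM of the list was 3432 to 3947 in the AAV9-hFNDC4 libraries against 2059 to 2337 in the AAV9-CTRL libraries. That sum came from Col1a1, Col1a2, Col3a1, Ddr2 and Pdgfra. Dcn, Lum, Postn and Tcf21 averaged 0.043, 0.0046, 0.12 and 0.0046 CPM. The 2 of 8 endothelial markers that reached 1 CPM left a list sum of 2.05 to 3.81 against 2.85 to 5.19 CPM, with Emcn and Cldn5 at 0. For the 16 cardiomyocyte markers the sum was 425 to 481 against 455 to 688 CPM, with Atp2a2 as the most abundant. Mural markers summed to 568 to 636 against 282 to 343 CPM (2 of 6 reached 1 CPM), and leukocyte markers to 19.8 to 22.6 against 35.3 to 42.3 CPM (4 of 10). Their part in the results below was not tested, and no value is assigned to heart muscle.

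The comparison asks whether RNA of the import machinery differed between the FNDC4 vector and the control vector after I/R. Import genes were broadly lower in the AAV9-hFNDC4 libraries: 28 of 33 members were called lower, 0 higher and 5 not called (edgeR quasi-likelihood F test, Benjamini-Hochberg adjusted p under 0.05 over all 14663 genes tested). At an unadjusted p under 0.05, and by DESeq2 and limma-voom, the count called higher was also 0. Over all genes tested, 25.0% were called lower and 22.1% higher. The median log2 fold change of the members was -0.72, beside 0.01 over all genes tested. In 29 members the 3 AAV9-hFNDC4 libraries all lay below the 3 AAV9-CTRL libraries, in 0 they all lay above, and in 4 the groups overlapped; over all genes tested, 29.5% were separated in the lower and 27.1% in the higher direction. Summed over the members, the level was 1971, 2117 and 1939 CPM in the AAV9-hFNDC4 libraries and 3061, 3158 and 3322 CPM in the AAV9-CTRL libraries, a ratio of 1.58. In bulk RNA, fewer cells of a type and less RNA per cell cannot be told apart.

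**Figure D1:**
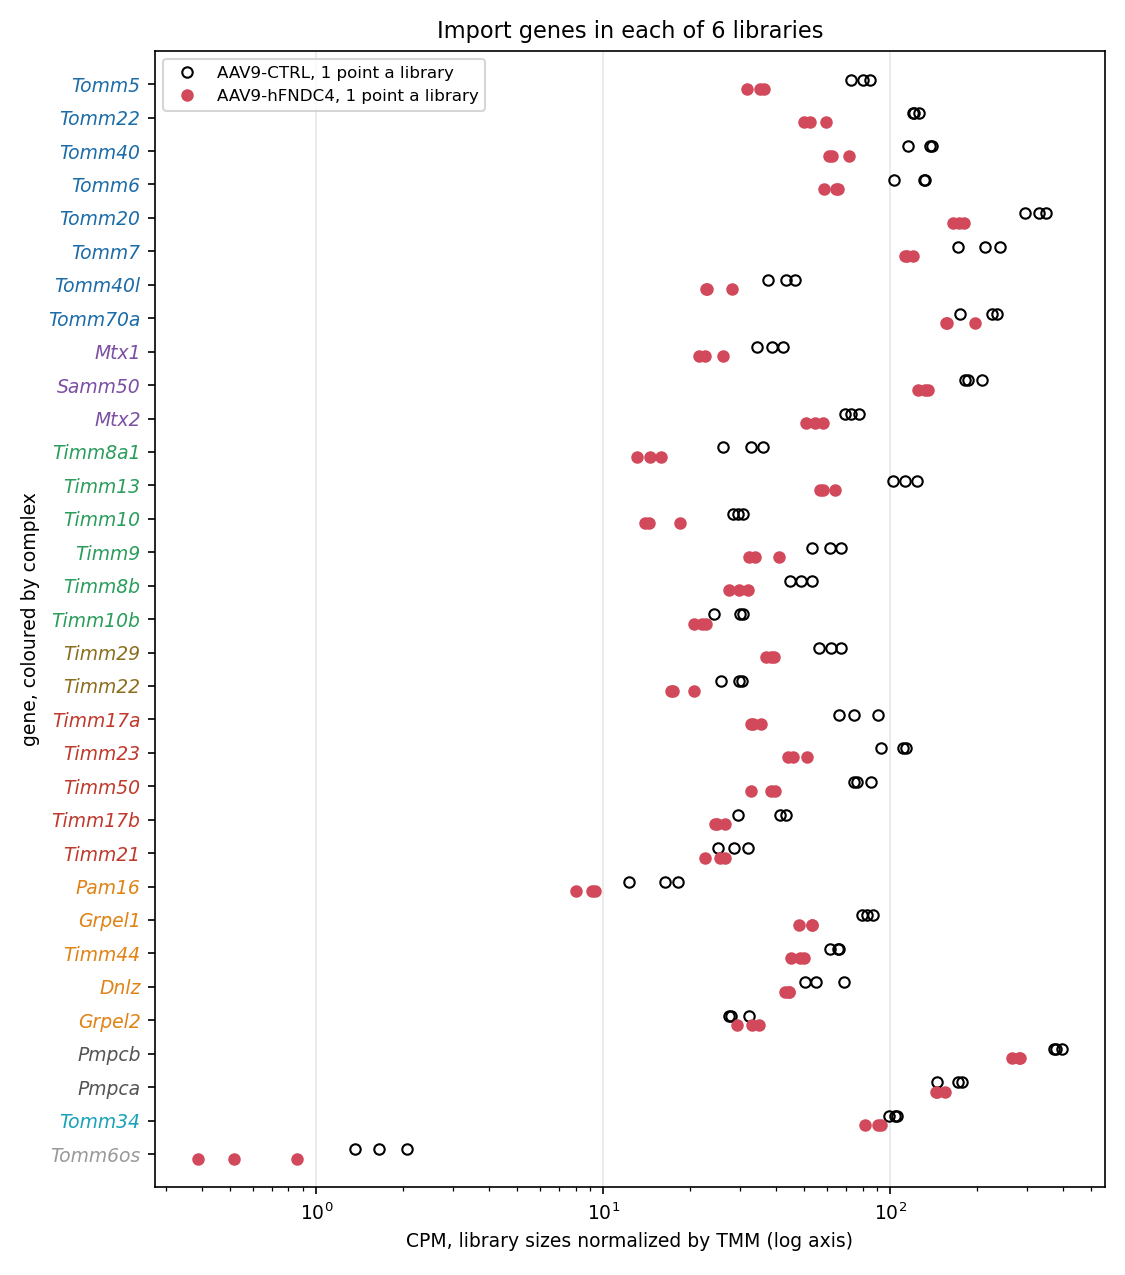
Level of each of the 33 import genes in every library, in CPM on a log axis, with open black circles for the 3 AAV9-CTRL libraries and filled red circles for the 3 AAV9-hFNDC4 libraries, and gene names coloured by complex. The red points lie to the left of all black points in 29 rows, and Grpel2, Pmpca, Timm21 and Tomm70a are the 4 rows in which the groups overlap.

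By median log2 fold change the TIM23 complex stood lowest at -1.10 (5 members), followed by the TOM complex at -0.93 (8 members) and the small TIM chaperones at -0.84 (6 members). The TIM22 complex had -0.66 (2 members), the SAM complex -0.56 (3 members), the PAM motor -0.43 (5 members) and the MPP peptidase -0.31 (2 members). Of the 8 members with a log2 fold change under -1, 3 belong to TOM, 3 to TIM23 and 1 to the small TIM chaperones, and the other is Tomm6os; among all genes tested, 8.52% lay under -1. Differences between the complexes were not tested, and their order changed with the correction for transcript length given below.

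Transcript length moved with the fold change over all genes, and many import genes are short. Among 13556 tested genes with a known length, the median log2 fold change was -0.50 in the shortest 10% and 0.45 in the longest 10%, and the members had a median exon length of 2381 bases against 3136 over those genes. Split into 3 equal sets by length, the genes with up to 2311 exon bases held 15 members, of which 15 were called lower, with a median of -0.92, beside 41.1% of all genes there and a median of -0.31. From 2311 to 4150 bases, 9 of 12 members were called lower with a median of -0.50, beside 24.6% and -0.03. Above 4150 bases, 4 of 6 members were called lower with a median of -0.67, beside 12.2% and 0.26. With the trend on length removed in each library, 25 of 33 members were called lower and 0 higher, with a median of -0.51, while 21.6% of all genes were called lower and 22.1% higher in that fit. By complex, the medians in that fit were -0.74 for TIM23, -0.71 for TOM and -0.59 for TIM22. They were -0.46 for the small TIM chaperones, -0.40 for SAM, -0.26 for PAM and -0.14 for MPP. What gave rise to the length trend was not tested.

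**Figure D2:**
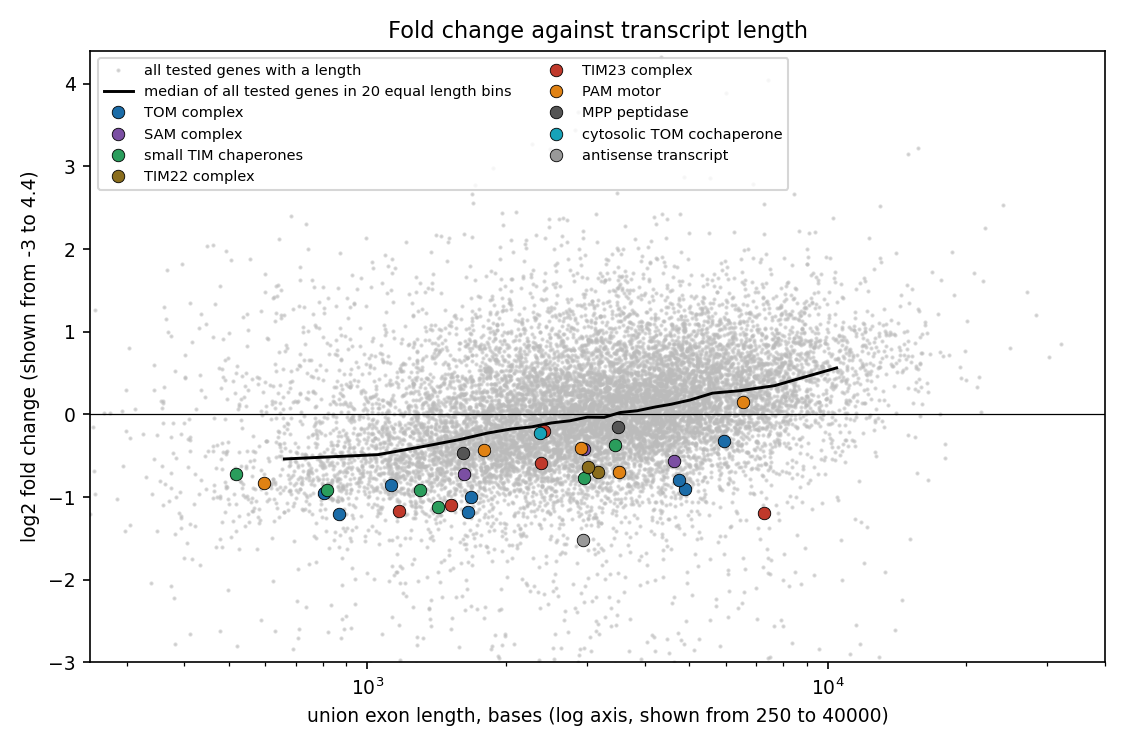
Log2 fold change (AAV9-hFNDC4 minus AAV9-CTRL) against union exon length on a log axis for all tested genes with a length (grey), with the median of all genes in 20 bins of equal gene number (black line) and the import genes coloured by complex. The line climbs from short to long transcripts, and the import genes within its range lie below it, including long ones such as Timm17a with 7280 bases.

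In the TOM complex, 7 of 8 members were called lower. Tomm22, the central receptor that also organizes the complex (chromosome 15, 79670861 to 79673400; all gene positions are of GRCm38, GENCODE M21), stood at 59.9, 52.5 and 49.9 CPM in the AAV9-hFNDC4 libraries and at 120.0, 120.4 and 126 CPM in the AAV9-CTRL libraries. The groups were far apart, with every control library at more than 2 times any AAV9-hFNDC4 library, and the log2 fold change was -1.17 (SE 0.11, edgeR adjusted p = 1.9e-05). Tomm5, a small subunit beside the channel (chromosome 4, 45105208 to 45108114), had 35.2, 36.3 and 31.7 CPM against 73.0, 80.4 and 84.9 CPM (log2 fold change -1.21, SE 0.11, edgeR adjusted p = 2.02e-05). The length correction brought these to -0.87 and -0.72, both still called.

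Tomm20, the receptor for presequences and the most abundant TOM transcript by CPM (chromosome 8, 126930667 to 126945844), stood at 165, 181 and 174 CPM against 295, 349 and 330 CPM. Its log2 fold change was -0.91 (SE 0.10, edgeR adjusted p = 6.12e-05), and -1.03 with the length correction. Tomm40, the channel itself (chromosome 7, 19701313 to 19715438), had 61.1, 71.7 and 62.7 CPM against 137, 116 and 139 CPM (log2 fold change -1.004, SE 0.12, edgeR adjusted p = 6.24e-05), and -0.71 with the correction. For both, no AAV9-hFNDC4 library reached the lowest control library. The small subunits Tomm6 and Tomm7, which stabilize or loosen the complex, had log2 fold changes of -0.95 and -0.85, and -0.44 and -0.40 with the correction, all called.

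Tomm70a, the receptor for carrier proteins that arrive with cytosolic chaperones (chromosome 16, 57121703 to 57156705), was the TOM member that did not pass. It had 158, 197 and 156 CPM against 236, 175 and 227 CPM, so AAV9-hFNDC4 replicate 2 lay above AAV9-CTRL replicate 2. The log2 fold change was -0.32 (SE 0.14, edgeR adjusted p = 0.0726). Of 16 alternatives 6 gave a call, including the fits that left out AAV9-CTRL replicate 2 (-0.44, adjusted p = 0.00812), or AAV9-hFNDC4 replicate 2 (-0.43, adjusted p = 0.0279) and the fit with the length correction (-0.53, adjusted p = 0.00549).

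Stretches of the Tomm20 and Tomm70a promoters are shown because these receptors differed in their call without the length correction while each window holds a searched motif. With the length correction both were called lower. Whether the motifs bear on the calls was not tested. The bases lie before the RefSeq start site (GRCm38.p6) and outside annotated exons, read 5′ to 3′ on the gene's strand. Capitals mark the motif: for Tomm20 the E-box CACGTG (chr8:126946012-126946077, minus strand) and then the motif of the factor NRF1 (chr8:126945922-126945971, minus strand), and for Tomm70a the ETS motif CCGGAAGT (chr16:57121604-57121671, plus strand).
Tomm20 E-box: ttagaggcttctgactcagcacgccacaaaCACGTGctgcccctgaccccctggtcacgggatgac
Tomm20 NRF1: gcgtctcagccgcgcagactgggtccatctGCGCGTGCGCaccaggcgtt
Tomm70a ETS: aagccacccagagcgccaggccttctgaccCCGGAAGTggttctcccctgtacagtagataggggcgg

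Per length of exon (RPKM, CPM per 1000 exon bases), the TOM transcripts of the AAV9-CTRL libraries ranged from Tomm7 at 186 ± 31.1 (SD, n = 3) and Tomm6 at 152 ± 20.8 down to Tomm40l at 8.96 ± 0.946. Tomm5 (91.5 ± 6.93), Tomm40 (78.0 ± 7.83), Tomm22 (74.0 ± 1.999) and Tomm20 (66.2 ± 5.57) lay in between, and Tomm70a followed at 35.7 ± 5.49. Between neighbours in this order, the ranges of mean ± SD overlapped for Tomm7 and Tomm6, for Tomm5 and Tomm40, and for Tomm40 and Tomm22. In the AAV9-hFNDC4 libraries Tomm7 (103 ± 3.36) and Tomm6 (78.6 ± 4.78) were again highest, and Tomm40l (5.18 ± 0.636) lowest. There, Tomm5, Tomm40, Tomm20 and Tomm22 stood at 39.6 ± 2.75, 38.9 ± 3.42, 35.3 ± 1.63 and 32.8 ± 3.13 RPKM. The order in both groups rests on the exon length used. Tomm20 has 4906 exon bases but a median transcript of 2680 bases, and Tomm5 has 868 against 659. The exons of Tomm6 overlap those of other annotated genes over 93.3% of their length, mainly Gm21981 on the same strand, so its level is uncertain.

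Tomm34, a cytosolic cochaperone of Hsp70 and Hsp90 that was named after the outer membrane, did not pass, at 81.3, 92.9 and 90.5 CPM against 105, 98.9 and 104 CPM. The groups did not overlap, but the log2 fold change was small at -0.22 (SE 0.10, edgeR adjusted p = 0.0959). Tomm6os, the antisense transcript of Tomm6, was near the detection limit with 32, 14 and 19 counts against 47, 52 and 69 counts. It was called lower at -1.52 (SE 0.43, edgeR adjusted p = 0.0118). Since 32.5% of its exon bases overlap Tomm6 or other genes and no strand setting is stated, reads over the shared bases cannot be told apart by gene. It lost the call without AAV9-CTRL replicate 3 (-1.36, adjusted p = 0.0581).

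All 3 SAM members were called lower. Samm50, the barrel that inserts other barrel proteins (chromosome 15, 84192241 to 84217267), had 132, 135 and 124 CPM against 182, 187 and 208 CPM (log2 fold change -0.56, SE 0.10, edgeR adjusted p = 0.000852). Mtx1, metaxin 1 (chromosome 3, 89209081 to 89227088), had 22.7, 26.1 and 21.5 CPM against 38.8, 34.4 and 42.4 CPM (log2 fold change -0.72, SE 0.13, edgeR adjusted p = 0.000802). Neither gene showed overlap between the groups. Mtx2, its partner, was lower by a smaller step of -0.42. With the length correction the values were -0.66, -0.40 and -0.34 in the same order, all called.

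A stretch of the Mtx2 promoter (chr2:74825757-74825802, plus strand, before the start and outside exons) is shown as a second ETS match, in capitals. Mtx2 was called lower, as were 28 of 33 members.
Mtx2 ETS: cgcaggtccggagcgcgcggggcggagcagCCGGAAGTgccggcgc

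The small TIM chaperones, which shield hydrophobic proteins between the membranes, were called lower in 6 of 6. Timm13 (chromosome 10, 80899450 to 80900969), which works with Timm8a1, stood at 58.1, 64.4 and 56.9 CPM against 102, 124 and 113 CPM (log2 fold change -0.92, SE 0.11, edgeR adjusted p = 9.03e-05). Timm8a1, whose human counterpart is mutated in deafness-dystonia syndrome (chromosome X, 134537256 to 134541865), had 14.5, 15.9 and 13.1 CPM against 32.7, 26.1 and 36.1 CPM (log2 fold change -1.12, SE 0.15, edgeR adjusted p = 0.000133). Both groups of libraries were clear of each other for these partners. With the length correction they had -0.51 and -0.76, both called.

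Timm9 and Timm10, which form the other chaperone ring, had log2 fold changes of -0.77 and -0.91, and -0.69 and -0.42 with the length correction, all called. Timm8b (chromosome 9, 50603910 to 50605320), the shortest member with 518 exon bases, had 29.7, 31.9 and 27.5 CPM against 44.9, 53.5 and 48.7 CPM. Its log2 fold change of -0.72 (SE 0.12, edgeR adjusted p = 0.000462) became -0.14 with the length correction (adjusted p = 0.285), which ended the call. Timm10b, which docks the ring on the TIM22 complex, was called at -0.37 (SE 0.13, edgeR adjusted p = 0.0305) and lost the call in 7 of 16 alternatives. Where the correction used the median transcript length of 671 bases in place of the 3443 exon bases, Timm10b had 0.069 (adjusted p = 0.631). Its exons overlap other genes over 19.7% of their length. Of all members, 9 share at least 10% of their exon bases with another gene. Beside Timm10b, Tomm6, Tomm6os and Tomm40l, these are Pmpca (25.0%), Mtx1 (16.5%), Timm8b (15.6%), Tomm40 (15.4%) and Grpel1 (11.6%).

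Promoter stretches of Timm9 (chr12:71136698-71136763, minus strand) and Timm8a1 (chrX:134541871-134541920, minus strand) each hold an E-box CACGTG, in capitals, as the Tomm20 stretch does. All 3 genes were called lower, as were 28 of 33 members, so the shared call does not tie the motif to the change. A link between motif and call was not tested.
Timm9 E-box: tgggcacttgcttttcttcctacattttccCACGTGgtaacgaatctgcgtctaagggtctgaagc
Timm8a1 E-box: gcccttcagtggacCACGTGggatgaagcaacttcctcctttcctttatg

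Both TIM22 members were called lower. Timm29, a subunit of the animal TIM22 complex (chromosome 9, 21592722 to 21595970), had 38.5, 39.3 and 37.0 CPM against 61.9, 67.4 and 56.6 CPM (log2 fold change -0.70, SE 0.11, edgeR adjusted p = 0.000392). Timm22, the channel for carriers (chromosome 11, 76406952 to 76416292), had 17.2, 20.6 and 17.5 CPM against 25.7, 30.5 and 29.7 CPM (log2 fold change -0.63, SE 0.13, edgeR adjusted p = 0.00201). The groups were separate in both, and the length correction changed these values little, to -0.64 and -0.55. A promoter stretch of Timm29 (chr9:21592479-21592527, plus strand) is shown because of Yipf2, which starts on the other strand nearby. Without the length correction Yipf2 was called in the opposite direction. Yipf2 starts inside Timm29 (distance between the starts -106 bases), so this stretch does not lie between both starts. Capitals mark the ETS motif in its reverse letters, ACTTCCGG.
Timm29 ETS: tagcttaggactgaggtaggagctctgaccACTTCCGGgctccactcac

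The TIM23 complex is the gate for presequence proteins, and 4 of its 5 members were called lower. Timm23, the channel-forming core (chromosome 14, 32180162 to 32201898), stood at 44.1, 51.2 and 45.9 CPM against 113, 92.8 and 110.5 CPM (log2 fold change -1.16, SE 0.12, edgeR adjusted p = 3.08e-05). Timm50, the receptor that takes over from TOM (chromosome 7, 28305516 to 28312072), had 38.3, 39.5 and 32.7 CPM against 76.5, 74.5 and 85.5 CPM (log2 fold change -1.10, SE 0.12, edgeR adjusted p = 3.98e-05). In both genes the lowest control library lay well above the highest AAV9-hFNDC4 library. With the length correction the values were -0.74 and -0.76, still called.

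Timm17a (chromosome 1, 135295213 to 135313778), one of the 2 forms of the lateral gate subunit and a protein that is known to be lost under stress, had 32.7, 35.5 and 33.2 CPM against 74.9, 66.1 and 90.3 CPM. Its log2 fold change was -1.19 (SE 0.13, edgeR adjusted p = 4.41e-05), and -1.50 with the length correction, against the direction of the trend for long transcripts. The other form, Timm17b (chromosome X, 7899357 to 7908351), had 26.6, 24.6 and 24.9 CPM against 29.6, 43.3 and 41.1 CPM. It was lower by a smaller step of -0.58 (SE 0.15, edgeR adjusted p = 0.00633), with AAV9-CTRL replicate 1 close to the AAV9-hFNDC4 libraries. Timm21, which links TIM23 to TOM and to respiratory chain assembly, did not pass, at 26.5, 25.5 and 22.5 CPM against 25.1, 31.9 and 28.6 CPM (log2 fold change -0.20, SE 0.13, edgeR adjusted p = 0.227).

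The Timm23 promoter stretch (chr14:32201902-32201948, minus strand) is shown because it lies between Timm23 and Parg, a gene that starts 51 bases away on the other strand. Without the length correction Timm23 was called lower and Parg was not called. Capitals mark the same reversed ETS letters as in Timm29.
Timm23 ETS: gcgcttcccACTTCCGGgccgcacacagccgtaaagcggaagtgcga

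In the PAM motor, which pulls proteins inward with mitochondrial Hsp70, 4 of 5 members were called lower. Grpel1, the nucleotide exchange factor of that Hsp70 (chromosome 5, 36464998 to 36474080), had 53.2, 53.3 and 48.0 CPM against 79.7, 83.1 and 87.2 CPM (log2 fold change -0.69, SE 0.10, edgeR adjusted p = 0.000286) that stayed at -0.68 with the length correction. Its relative Grpel2 (chromosome 18, 61712424 to 61726325), held to be a form used under stress, was the only member with a positive value, at 29.2, 34.8 and 32.9 CPM against 27.9, 27.5 and 32.2 CPM. The groups of Grpel2 overlapped, and its log2 fold change of 0.15 (SE 0.12, edgeR adjusted p = 0.343) was -0.12 with the length correction, neither called.

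Pam16, the regulator of the motor's J-domain protein (chromosome 16, 4616464 to 4624988), had 9.32, 8.04 and 9.12 CPM against 12.3, 18.3 and 16.4 CPM. It was called lower at -0.83 (SE 0.17, edgeR adjusted p = 0.0025), and with 596 exon bases it lost the call under the length correction (-0.26, adjusted p = 0.179). Timm44, the anchor of the motor, was lower at -0.43 and also lost the call there (-0.16, adjusted p = 0.195). Dnlz, which keeps mitochondrial Hsp70 soluble, was lower at -0.41. Without AAV9-CTRL replicate 2, its highest library at 68.9 CPM, Dnlz had -0.27 (adjusted p = 0.055), and leaving out AAV9-hFNDC4 replicate 1 (adjusted p = 0.073) or replicate 3 (adjusted p = 0.0609) or correcting for GC content (-0.21, adjusted p = 0.144) ended the call as well.

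Of the MPP peptidase, the catalytic subunit Pmpcb was lower and the substrate-binding subunit Pmpca was not called. Pmpcb (chromosome 5, 21737141 to 21757152) was the most abundant member by CPM, at 280, 282 and 266 against 379, 372 and 395 CPM (log2 fold change -0.47, SE 0.09, edgeR adjusted p = 0.00191) that was -0.15 with the length correction (adjusted p = 0.198). Pmpca (chromosome 2, 26389339 to 26397122) had 145, 154 and 145 CPM against 178, 145 and 172 CPM. AAV9-CTRL replicate 2 lay among the AAV9-hFNDC4 libraries, and the log2 fold change was -0.16 (SE 0.11, edgeR adjusted p = 0.249). Without that library Pmpca passed at -0.24 (adjusted p = 0.0487). With the length correction Pmpca had -0.14 (edgeR adjusted p = 0.297), close to Pmpcb, and neither subunit was then called.

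**Figure D3:**
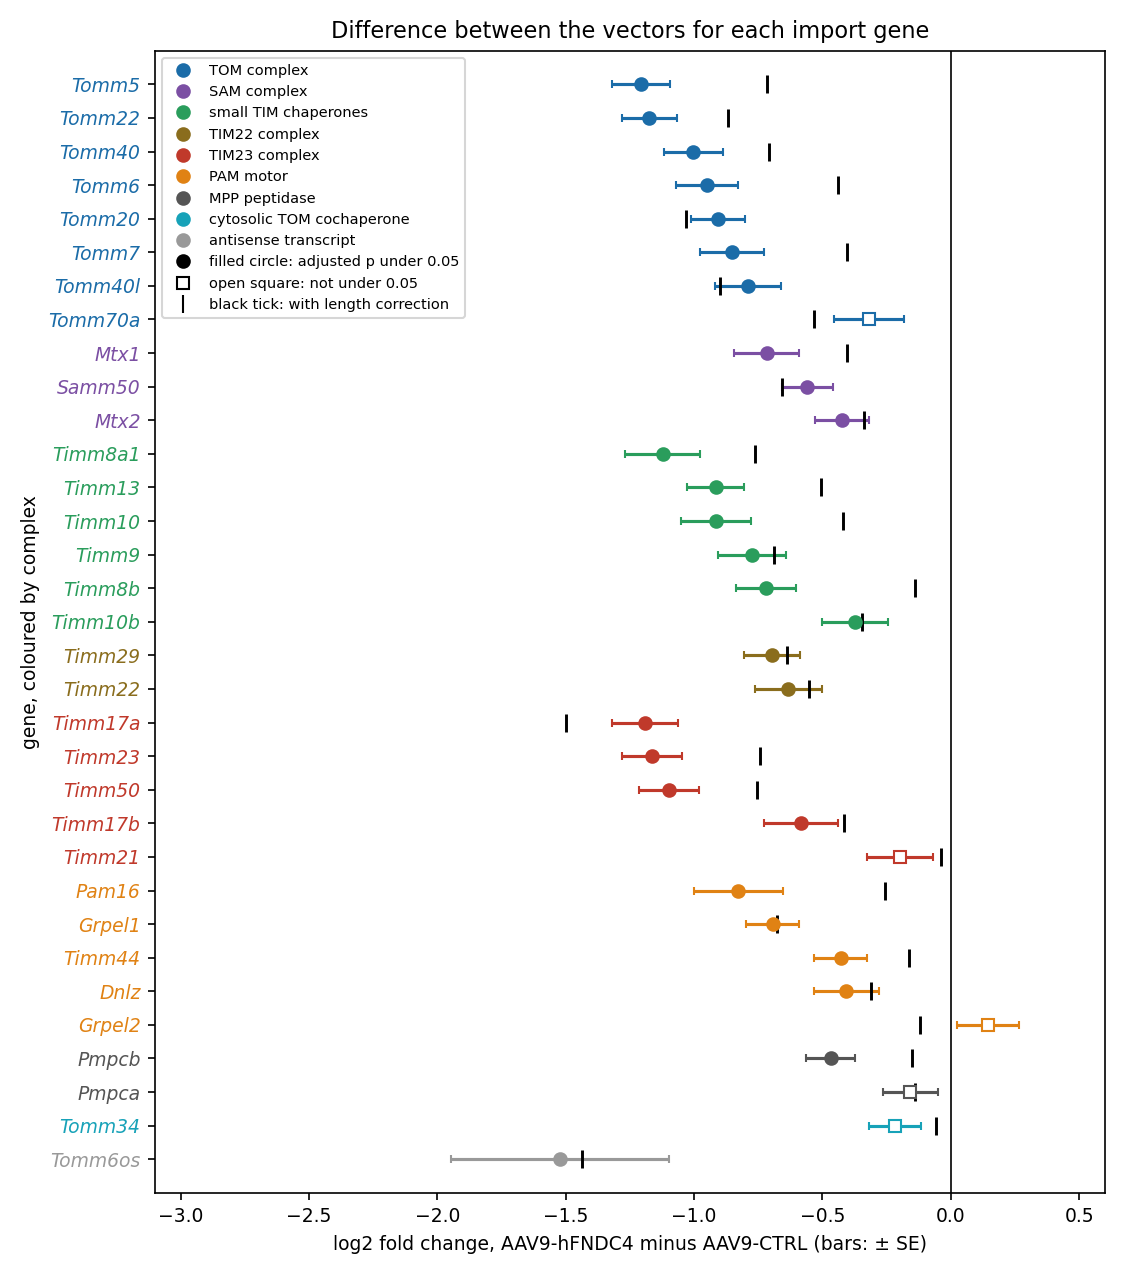
Log2 fold change with its SE for each import gene, grouped by complex, with filled circles for genes with an adjusted p under 0.05, open squares for the others, and black ticks for the value after the length correction. The 28 filled circles all lie left of 0, and the ticks of Pam16, Timm44, Timm8b and Pmpcb lie close to 0.

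Related genes within the machinery were compared as the ratio of their counts in the same library, which does not depend on library scaling but still carries the length trend. For Grpel1 over Grpel2 the ratio was 1.83, 1.53 and 1.46 in the AAV9-hFNDC4 libraries and 2.86, 3.02 and 2.71 in the AAV9-CTRL libraries. The groups did not overlap, and the difference was -0.84 on the log2 scale (exact 2-sided permutation p = 0.1, the smallest that 3 against 3 allows; 0.2 adjusted over the 4 pairs compared). For Timm17a over Timm17b it was 1.23, 1.45 and 1.33 against 2.53, 1.53 and 2.20, a difference of -0.61 without overlap (exact permutation p = 0.1, adjusted 0.2). AAV9-CTRL replicate 2 was the control library nearest to the other group. With the length trend of each library taken off both genes, the differences were -0.56 for the Grpel pair and -1.08 for the Timm17 pair, again without overlap (exact permutation p = 0.1, adjusted 0.133, for each).

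For Timm8a1 over Timm8b the ratio was 0.488, 0.499 and 0.477 against 0.728, 0.489 and 0.740, a difference of -0.39 (exact permutation p = 0.2, adjusted 0.267). AAV9-CTRL replicate 2 lay within the AAV9-hFNDC4 values. The length correction gave -0.60 and no overlap for this pair (exact permutation p = 0.1, adjusted 0.133). Tomm40 over Tomm40l, a channel-like relative of Tomm40, was 2.18, 3.13 and 2.76 against 3.65, 2.49 and 3.21, with overlapping groups and a difference of -0.21 (exact permutation p = 0.4, adjusted 0.4). Its direction turned with the length correction, to 0.20, with the groups still overlapping (exact permutation p = 0.6, adjusted 0.6). Without AAV9-CTRL replicate 1 the uncorrected difference was -0.09, without AAV9-hFNDC4 replicate 1 it was -0.07, and without AAV9-CTRL replicate 2 it was -0.36. Tomm40l itself was called lower, at 28.0, 22.9 and 22.8 CPM against 37.6, 46.4 and 43.4 CPM (log2 fold change -0.79, SE 0.13, edgeR adjusted p = 0.000524), and at -0.90 with the length correction, but 45.5% of its exon bases overlap Nr1i3 on the other strand.

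**Figure D4:**
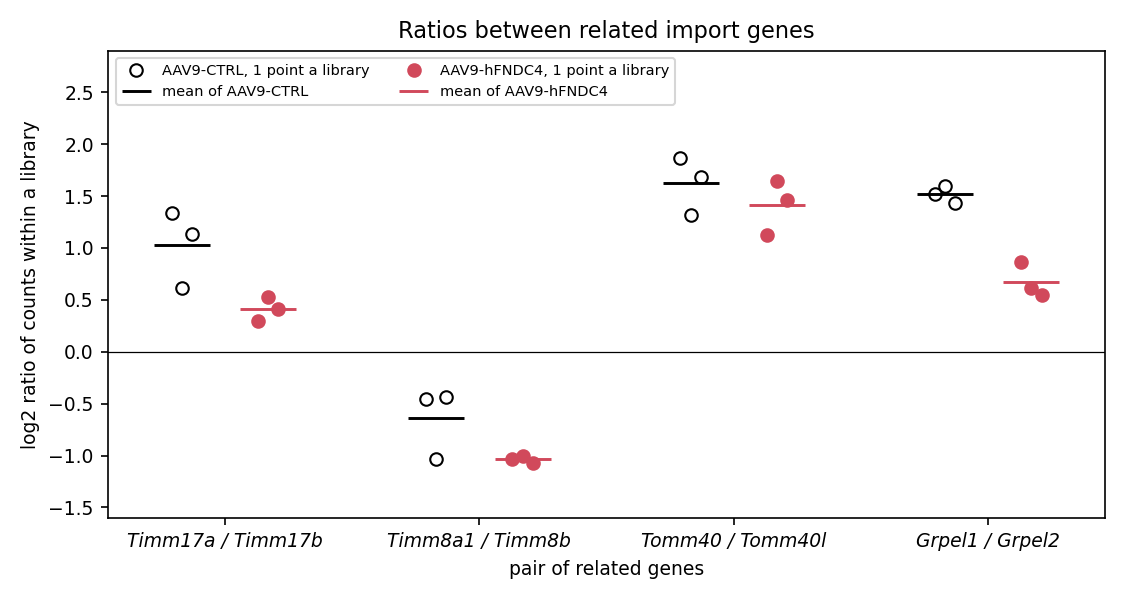
Log2 ratio of counts within each library, without the length correction, for 4 pairs of related import genes, with open black circles for AAV9-CTRL, filled red circles for AAV9-hFNDC4 and a bar at each mean. The groups are apart for Timm17a over Timm17b and for Grpel1 over Grpel2 and overlap for the other pairs.

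Of the coding members, 9 have a coding gene on the other strand that starts within 1000 bases of their own start in GENCODE, so that the pair may share a promoter region. In 2 pairs both genes were called lower: Timm8b at -0.72 with Sdhd, a subunit of respiratory complex II, at -0.71 (SE 0.10, edgeR adjusted p = 0.000174), and Timm17b at -0.58 with Pqbp1, a splicing-related protein, at -0.70 (SE 0.11, edgeR adjusted p = 0.000367). In 2 pairs the genes were called in opposite directions: Timm9 at -0.77 with 2700049A03Rik at 0.53 (SE 0.14, edgeR adjusted p = 0.00869), and Timm29 at -0.70 with Yipf2, a Golgi membrane protein, at 0.63 (SE 0.19, edgeR adjusted p = 0.0185). Timm23 at -1.16 was paired with Parg, which removes poly(ADP-ribose), at 0.17 (SE 0.14, edgeR adjusted p = 0.337), so across the stretch printed above 1 gene was called and the other was not. Of the remaining 4 pairs, the member alone was called in 2, the neighbour alone in 1 and neither in 1. The shares of all genes tested were 25.0% lower and 22.1% higher, and the neighbour calls were not tested against them. All values of these pairs are without the length correction. With it, Timm8b lost its call (-0.14, edgeR adjusted p = 0.285), while Timm17b, Timm9, Timm29 and Timm23 were still called lower. The gene 2700049A03Rik falls in the set above 4150 exon bases, where 39.7% of all genes were called higher without the correction. Whether the pair patterns hold with the correction was not tested.

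RefSeq promoter windows, from 250 bases before to 50 bases after a start, were found for 29 of 33 members, and Grpel2, Timm21, Tomm40l and Tomm7 had none. Windows were searched on both strands, and an overlap between motifs was allowed. ETS (CCGGAAGT) was found in 7 of 29 members (24.1%) beside 4.31% of all genes with a window. For the E-box (CACGTG) it was 5 members (17.2%) beside 8.09%, for the NRF1 motif 3 members, namely Pam16, Timm8b and Tomm20 (10.3%), beside 5.19%, and for the YY1 motif Mtx1 and Timm50 (6.90%) beside 0.755%. The heat shock element was found in Timm9 (3.45%) beside 0.662%. Of the 7 ETS members, Mtx2, Pmpcb, Timm10, Timm10b, Timm23 and Timm29 were called lower and Tomm70a was not called. With the length correction Tomm70a was called lower and Pmpcb was not called. The 27025 genes with a window include genes that were not among the 14663 tested, while every member was. The shares are thus not set beside those of like expressed genes. A match describes the letters and not binding.

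Outside the 33 members, 79 tested genes of 6 related lists were read in the same fit: 40 were lower, 9 higher and 30 not called, with a median of -0.30. Over all genes tested, 25.0% were lower and 22.1% higher. With the length correction 29 were lower and 13 higher, with a median of -0.12. Of the genes named here Hspa9, Apoo, Micos13, Clpp, Htra2 and Nrf1 then lost their call. In that fit 21.6% of all genes were lower and 22.1% higher. Of 23 import partners, 13 were lower and 1 higher without the correction. Their median was -0.27 without it and -0.31 with it. Hspe1, the matrix cochaperonin, stood at 150.2 ± 7.64 against 374 ± 18.1 CPM (SD, n = 3), a log2 fold change of -1.32, Romo1, a small TIM23-associated protein, had -1.17, and Dnajc19, the J-domain protein that Pam16 regulates, had -0.80. The higher partner was Dnaja3, a matrix J-domain protein, at 0.50. Chchd4 and Gfer, the oxidation relay of the intermembrane space, were lower at -0.70 and -0.59, and Hspa9, the mitochondrial Hsp70 itself, at -0.40.

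Among 17 tested proteins with paired cysteine motifs that this relay imports, 11 were lower and 1 higher. Chchd2 stood at 86.6 ± 6.12 against 245 ± 21.1 CPM (log2 fold change -1.50), Cox17, a copper chaperone, had -0.87 and Cox6b1, a subunit of cytochrome oxidase, -0.90. Chchd10, the close relative of Chchd2, went the other way, at 29.7 ± 10.6 against 8.22 ± 1.52 CPM (log2 fold change 1.85, SE 0.24, edgeR adjusted p = 0.000137). The median of this list went from -0.61 to -0.21 with the length correction. Chchd2, Cox17, Cox6b1, Cox19, Ndufs5 and Ndufa8 were then called lower, and Chchd10, Cmc1, Chchd5 and Coa4 higher. In the cristae junction complex 5 of 7 were lower and 2 not called without the correction, led by Micos10 at -1.16, Apoo at -0.70 and Micos13 at -0.65. Its median went from -0.50 to -0.12 with the correction, where Micos10 and Chchd3 were called lower and Apool higher. Of all genes, 25.0% were lower and 22.1% higher without the correction, and 21.6% and 22.1% with it. Neither list was tested against these shares.

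Of 11 mitochondrial proteases and prohibitins, 4 were lower and 1 higher, beside 25.0% and 22.1% of all genes tested. The median of this list was -0.12, and 0.04 with the length correction. The prohibitins Phb and Phb2, scaffolds of the inner membrane, were lower at -1.20 and -1.04, and Oma1, a stress-activated protease, was higher at 1.08. The proteases Htra2 and Clpp were lower at -0.39 and -0.30, and both lost the call with the length correction (edgeR adjusted p = 0.41 and 0.259). The proteases Lonp1, Clpx, Afg3l2, Spg7, Yme1l1 and Parl were not called. Of 6 tested genes of the PINK1 pathway and import stress, Ubqln1, a ubiquitin-binding shuttle, and Pgam5, a mitochondrial phosphatase, were lower at -0.84 and -0.56, and 4 were not called. With the length correction the median of these genes went from -0.22 to -0.34, and Atad1 and Eif2ak1 were also called lower.

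Regulators of mitochondrial biogenesis split, with 5 of 15 lower and 6 higher, beside 25.0% and 22.1% of all genes tested. The median of this list was -0.22, and -0.12 with the length correction. Tfb2m, a factor of mitochondrial transcription, stood at 17.6 ± 1.79 against 57.9 ± 7.55 CPM, a log2 fold change of -1.72. Its relative Tfb1m, which modifies mitochondrial ribosomal RNA, was higher at 0.87, as was the coactivator Ppargc1a at 0.97. Of the listed factors whose motifs were searched, Nrf1 was higher at 0.31, Myc, which binds the E-box, was higher at 0.44, Yy1 and the ETS partner Gabpb1 were lower at -0.69 and -0.64, and Gabpa did not pass at -0.21 (SE 0.15, edgeR adjusted p = 0.277). These are RNA levels and say nothing of the activity of the factors.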

How the data were processed

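The authors deposited raw read counts per gene symbol, 1 column per library, with no normalization; fastp, HISAT2, HTSeq, R 3.2.0 and DESeq2 with the build GRCm38 (mm10) are named per the submitters' processing notes. Not given in the sources used here were the strand setting, the annotation release and how multi-mapping reads were counted. Counts were fitted in R 4.3.3 with edgeR 4.0.16 (filterByExpr, TMM, robust quasi-likelihood F test) over all 14663 genes passing the filter, with Benjamini-Hochberg adjustment and a threshold of 0.05. The SE is the log2 fold change divided by the square root of F. CPM used TMM library sizes, except for cell type markers, which used plain totals. Lengths, GC and positions are of the GENCODE vM21 basic annotation (GRCm38), and a loess trend (span 0.4) of each library on log2 exon length or GC was removed as offsets. Fits were tested on simulated counts.

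Groups came from the sample titles. All members are named; values of each library are given for the 2 members with the smallest p and the most abundant one in each complex, and for both genes of 4 related pairs. Up to 3 called partner genes per list, by p, are given by group means or log2 fold changes, with others (among them Tomm70a, Timm21, Chchd4, Gfer, Hspa9, Dnaja3, Chchd10 and the regulators whose motifs were searched) named after their values were seen. The members, lists and tests were chosen with earlier results of these data known. Alternatives were RLE, upper-quartile normalization, other count filters, DESeq2 1.42.0, limma-voom (limma 3.58.1), a replicate block, length and GC corrections and leaving out each library; length corrections by median transcript length, and of the ratios of related genes, were chosen after seeing the data.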

Additional observations from a re-analysis of the deposited data

How the results depend on the processing

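The direction of the members' median and the counts of members and partner genes were recomputed under 16 alternatives. Between 25 and 29 members were called lower and 0 higher in every one of them, with 26 to 29 when a library was left out; 32 to 43 partner genes were lower and 6 to 8 higher without a library. The median log2 fold change of the members was -0.51 with the length correction and -0.50 with the length correction by median transcript, the latter chosen after seeing the data, in place of -0.72; with a library left out it lay between -0.76 and -0.67. Of the 28 members called lower, 21 passed in every alternative and 7 (Dnlz, Pam16, Pmpcb, Timm10b, Timm44, Timm8b, Tomm6os) lost the call in at least 1. The sign turned for Grpel2 with the length correction (-0.12) and for Timm10b with the correction by median transcript (0.069). The replicate numbers did not pair the libraries: the deviations of same-numbered libraries correlated at -0.08, -0.18 and -0.05, and with the replicate block 27 members were called lower, Timm10b being lost. In the sign-flip test with the replicate block, the difference in Grpel1 over Grpel2 was -0.84 with an exact p of 0.25, the smallest that 3 pairs allow. Without a library the differences in log2 ratio ranged from -0.94 to -0.78 for Grpel1 over Grpel2, -0.82 to -0.46 for Timm17a over Timm17b, -0.59 to -0.29 for Timm8a1 over Timm8b and -0.36 to -0.07 for Tomm40 over Tomm40l. With the length correction the last was 0.20, the one pair whose sign turned, and it was -0.026 with the correction by median transcript. Depth does not limit the coding members, the least abundant of which, Pam16, had at least 290 counts in each library, while Tomm6os had 14 to 69.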
